A study of Mus musculus with 6 samples.

Results

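Guanylate-binding and interferon-stimulated genes are genes whose transcription rises when a cell senses interferon. The 9 genes described here are Gbp2, Gbp2b, Gbp3, Irf1, Isg15, Ifitm1, Ifitm2, Ifitm3 and Bst2, taken by symbol from the 43309 genes of a count table. All 9 passed a minimum of 10 counts in some library, which 16823 genes passed in all. The 9 were selected on their counts in this very comparison, control against labelled knockout, so their differences between the groups are described without a test.

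The table comes from mouse embryonic stem cells (mESCs), pluripotent cells grown as lines, of the J1 (129SV) background. All lines were kept on gelatin in serum medium without feeder cells. The 3 control lines carried the genotype 2lox/+ at Zbtb24 and are labelled wild-type, and the 3 lines of the other group carried 1lox/1lox and are labelled Zbtb24 knockout, where lox denotes a site cut by Cre recombinase. The study describes the lines of a group as independently derived, each line gave 1 TruSeq Stranded mRNA library from 2 µg of RNA, and the labels name no interferon treatment. A p-value measures the spread among these lines only.

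Library totals ran from 25042261 to 28838924 counts. Zbtb24, which encodes a zinc finger protein, had 510, 512 and 489 counts in the control lines and 888, 925 and 1039 in the lines labelled knockout, so its level goes against that label and the group is called "labelled knockout" throughout. Counts over a whole gene do not show whether an exon is missing. Between the groups, 69.5% of the genes tested passed a false discovery rate (FDR) of 0.05 in edgeR's quasi-likelihood test, 34.4% as higher and 35.2% as lower in the lines labelled knockout, and 71.5% had values that did not overlap between the groups. Every count of genes below is to be read against these shares. The summed level of 10 mESC markers in cpm, counts scaled to the size of their library, ran from 5503 to 5605 cpm in the control lines and from 6738 to 6801 in the lines labelled knockout, so the cells carried the markers of their label in every library.

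Type I interferons signal through Ifnar1 and Ifnar2 and type II interferon through Ifngr1 and Ifngr2, and the JAK kinases at these receptors phosphorylate STAT proteins. STAT complexes that include Irf9 bind the interferon-stimulated response element (ISRE), and STAT dimers bind the gamma-activated site (GAS). Irf1 is itself induced through a GAS and then binds ISRE-like sites, and the guanylate-binding proteins, large GTPases that act on intracellular pathogens, are among the genes it drives. Pluripotent stem cells are known for a weak response to interferon and for constitutive expression of Ifitm genes.

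The promoters of the 9 genes were read for both elements. No sequence entered the choice, but the class is defined by its response to interferon, which acts through these elements. A share above that of all windows was thus likely beforehand and is a description only. In 32851 RefSeq promoter windows (GRCm38.p6, 250 bases before to 50 bases after a transcript start), the ISRE core GAAANNGAAA was present on either strand in 3.443% and the GAS core TTCNNNGAA in 8.298%. All 9 genes matched a window by symbol, Gbp3 and Irf1 with a pair of starts each, which makes 11 windows. The ISRE core stood in a window of 7 of the 9 genes (all but Irf1 and Ifitm1), and the GAS core in a window of 3 (Irf1, Ifitm3 and Bst2). By windows, these were 7 and 3 of the 11. Counting only matches on the strand of the gene left 4 genes with an ISRE core, against 1.744% of windows. A match is a run of letters, and whether a protein binds there was not measured.

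The stretches below show where these cores lie. Each runs 5′ to 3′ on the strand of the gene, capitals mark the bases of a core, and adjoining or overlapping cores share 1 run of capitals.
Gbp2 (chr3:142620574-142620623, plus strand): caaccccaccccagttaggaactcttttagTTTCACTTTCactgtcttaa
Gbp2b (chr3:142594680-142594729, plus strand): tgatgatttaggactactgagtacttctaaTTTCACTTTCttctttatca
Gbp3 (chr3:142559969-142560024, plus strand): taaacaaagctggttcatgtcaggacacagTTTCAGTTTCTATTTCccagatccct
Irf1 (chr11:53769894-53769942, plus strand): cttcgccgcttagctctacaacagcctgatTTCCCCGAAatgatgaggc
Isg15 (chr4:156200865-156200926, minus strand): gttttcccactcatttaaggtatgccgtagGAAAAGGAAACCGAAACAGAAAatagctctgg
Ifitm2 (chr7:140955988-140956037, minus strand): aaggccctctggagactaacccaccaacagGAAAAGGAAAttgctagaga
Ifitm3 (chr7:141010716-141010742, minus strand): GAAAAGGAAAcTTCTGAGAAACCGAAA
Bst2 (chr8:71537577-71537638, minus strand): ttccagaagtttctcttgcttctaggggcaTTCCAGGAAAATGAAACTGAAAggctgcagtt

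In Gbp2 the core begins 59 bases before the RefSeq start and in Gbp2b 137 bases before it, and both carry the same 10 letters on the opposite strand. Gbp3 has overlapping cores that begin 45 and 39 bases before its start. Isg15 has 3 overlapping cores that begin 78, 72 and 66 bases before its start, the most ISRE cores of any of the 9. Irf1 holds a GAS core 90 bases before its first start and no ISRE core in either window. In Bst2 the GAS core begins 136 bases before the start and runs into ISRE cores that begin 130 and 124 bases before it. Ifitm2 has 1 ISRE core 46 bases before its start, while the cores of Ifitm3 lie just inside the transcript, at 2, 13 (GAS) and 19 bases after it. These distances follow the RefSeq starts, which differ from the GENCODE gene starts by 61 bases in Gbp2, 18 in Gbp3, 26 in Ifitm2 and Ifitm3 and 16 in Bst2. From the GENCODE start the Gbp2 core begins 2 bases inside the transcript, the Gbp3 cores 27 and 21 bases and the Ifitm2 core 20 bases before it, the Ifitm3 cores 28, 39 (GAS) and 45 bases after it, and the Bst2 cores 152 (GAS), 146 and 140 bases before it. The window of Ifitm1 (chr7:140967826-140968125) held neither core; it follows the RefSeq start and does not reach the upstream start that GENCODE gives for this gene at 140967221. The map of motif positions shows these places.

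**Figure D1:**
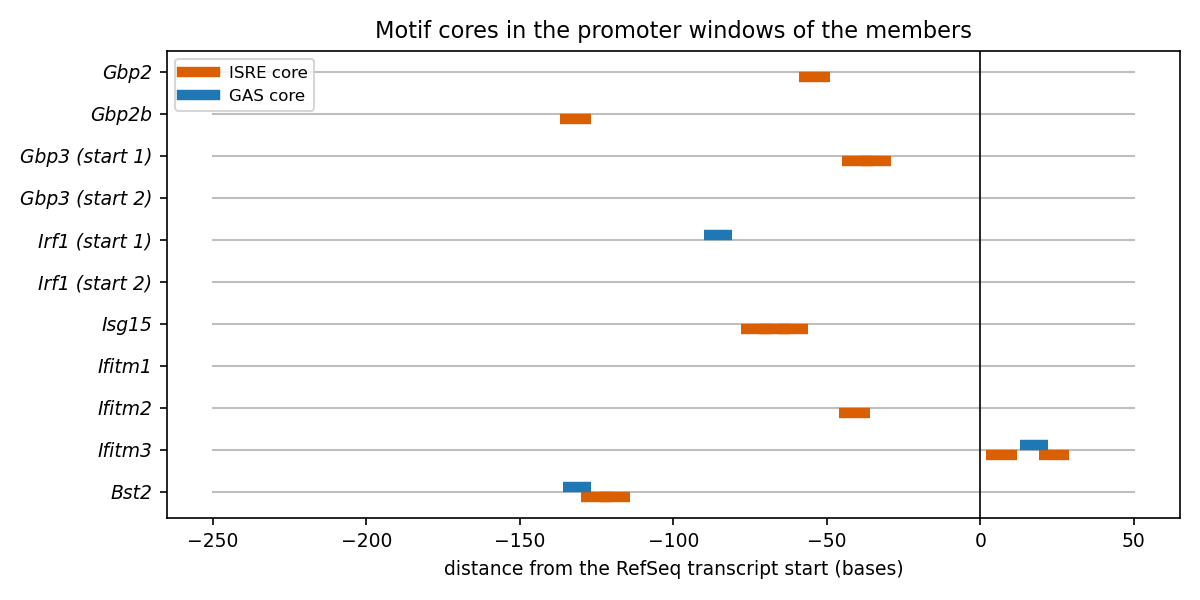
Position of the ISRE core and the GAS core in the RefSeq promoter windows of the 9 genes, with the distance from the transcript start in bases on the x axis and 1 line per window on the y axis. An ISRE core (orange) lies in windows of 7 genes and a GAS core (blue) in windows of 3, and the window of Ifitm1 has neither.

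The windows also differ in CpG dinucleotides, the bases that DNA methylation uses. The median over all windows was 7 CpG, with quartiles of 3 and 20. Gbp2b had 1 CpG, Gbp2 had 2 and both Gbp3 windows had 2, so that only 5.428% of all windows had fewer than Gbp2b and 14.12% fewer than Gbp2. Ifitm2 had 4, Ifitm1 and Ifitm3 had 5 each, Isg15 had 6 and Bst2 had 11. Irf1 stood apart with 32 and 43 CpG in its windows, more than 90.48% and 97.39% of all windows. Methylation itself was not measured in these libraries.

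In the comparison of the groups, 8 of the 9 genes were lower in the lines labelled knockout and 1, Ifitm2, was higher, and all 9 had values that did not overlap between the groups. The share of all tested genes with non-overlapping values is the 71.5% given above, and nothing is read from the count, because these values chose the genes. The median log2 fold change was −1.30 over the 9 genes and −0.00036 over all genes tested. The genes fall into 4 with a fitted log2 fold change under −4 (Gbp2, Gbp2b, Gbp3 and Isg15) and 5 between −1.30 and 0.27. Of all genes tested, 154 (0.915%) had a log2 fold change under −4, these 4 among them. Because these are bulk libraries, fewer cells with a transcript and fewer transcripts per cell cannot be told apart.

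**Figure D2:**
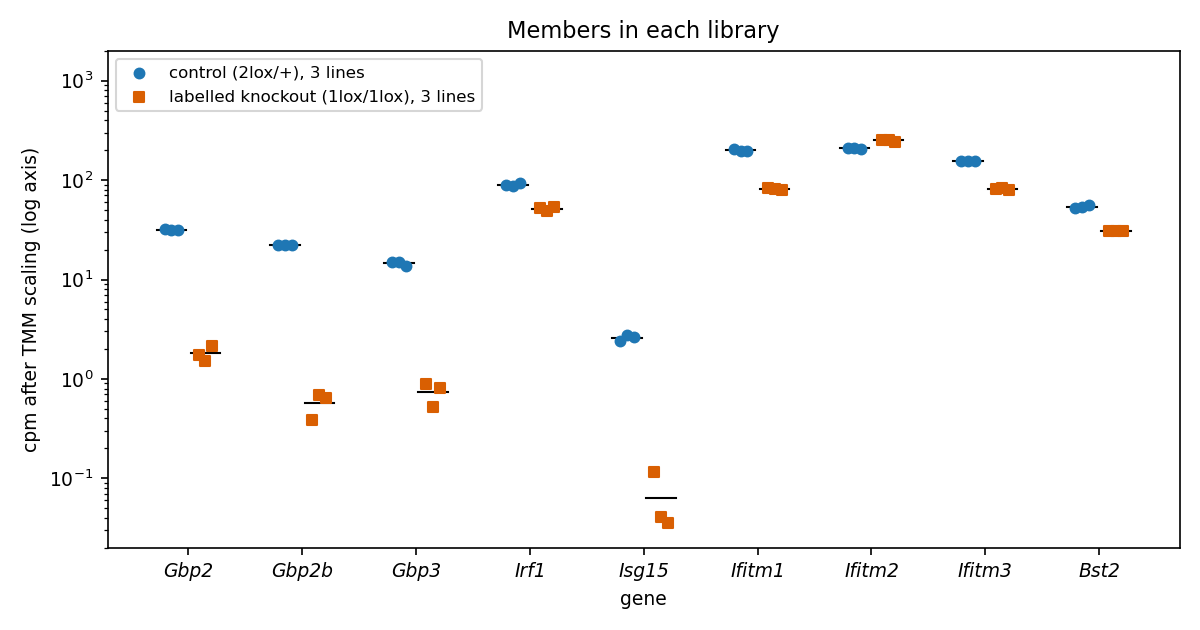
Level in cpm (counts scaled by library size with TMM, log axis) of each of the 9 genes in the 3 control lines (blue circles) and the 3 lines labelled knockout (orange squares), with the group mean as a black line. The groups do not overlap for any gene; Isg15 in the lines labelled knockout rests on 3, 1 and 1 counts, and Ifitm2 is the only gene with its orange points above the blue.

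Gbp2b (ENSMUSG00000040264, chr3:142594847-142619179, plus strand), also known as Gbp1 in mouse, had 627, 610 and 606 counts in the control lines and 10, 17 and 18 in the lines labelled knockout. The control lines lay within a few percent of each other, and every line labelled knockout was far under them. Its level went from 22.2 ± 0.105 cpm to 0.570 ± 0.164 cpm (mean ± SD, n = 3 lines each), a log2 fold change of −5.27 (SE 0.12). From the summed counts, 1843 against 45, the control level was 38.9 times as high, with an exact 95% interval of 28.97 to 53.6 that covers counting error only.

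Gbp2 (ENSMUSG00000028270, chr3:142620602-142638008, plus strand), the most abundant of the Gbp genes here per kb of transcript, had 904, 862 and 869 counts in the control lines and 46, 37 and 61 in the lines labelled knockout. Its level went from 31.7 ± 0.382 to 1.81 ± 0.331 cpm, which leaves 5.70% of the control level, and the log2 fold change was −4.12 (SE 0.08).

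Gbp3 (ENSMUSG00000028268, chr3:142560026-142573209, plus strand) had 418, 414 and 378 counts in the control lines and 23, 13 and 23 in the lines labelled knockout. Its level went from 14.6 ± 0.696 to 0.741 ± 0.187 cpm, with a log2 fold change of −4.28 (SE 0.13), so its 5.09% of the control level is close to that of Gbp2.

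The summed level of the 3 Gbp genes was 68.4 ± 0.897 cpm in the control lines and 3.12 ± 0.453 cpm in the lines labelled knockout. Gbp2b gave 32.4% ± 0.272 of this sum in the control lines and 18.6% ± 6.41 in the others, and Gbp2 gave 46.3% ± 0.598 and 57.8% ± 2.33. The share of Gbp3 was 21.3% ± 0.792 and 23.7% ± 4.95, a difference smaller than its spread in the lines labelled knockout.

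Isg15 (ENSMUSG00000035692, chr4:156199424-156200818, minus strand) encodes a ubiquitin-like protein that is joined to other proteins after interferon. It had 67, 76 and 72 counts in the control lines and 3, 1 and 1 in the lines labelled knockout, so it was already a low transcript in the control lines and near the limit of detection in the others. The summed counts, 215 against 5, put the control level at 40.9 times that of the lines labelled knockout, with an exact 95% counting interval of 17.2 to 127. This interval is wide enough to hold the ratios of Gbp2 (17.4), Gbp3 (19.5) and Gbp2b (38.9), so the order of these 4 genes by ratio is not resolved for Isg15. The fitted log2 fold change of −5.25 (SE 0.34) depends on the small count that the fit adds and is not a bound.

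Irf1 (ENSMUSG00000018899, chr11:53770014-53778374, plus strand), the transcription factor named above, had 2542, 2410 and 2552 counts in the control lines and 1357, 1210 and 1523 in the lines labelled knockout. Its level went from 90.3 ± 2.62 to 51.7 ± 2.41 cpm, 57.2% of the control level, and the log2 fold change was −0.80 (SE 0.04). The lowest control line (87.7 cpm) lay well above the highest line labelled knockout (53.9 cpm), although the difference is far smaller than that of the Gbp genes.

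Bst2 (ENSMUSG00000046718, chr8:71534255-71537456, minus strand), which encodes tetherin, a membrane protein that holds budding virus particles at the cell surface, had 1474, 1469 and 1541 counts in the control lines and 810, 764 and 863 in the lines labelled knockout. Its level went from 54.0 ± 1.93 to 30.9 ± 0.263 cpm, 57.2% of the control level, with a log2 fold change of −0.81 (SE 0.04). Irf1 and Bst2 thus stood at the same fraction of the control level.

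The Ifitm genes encode small membrane proteins that block the entry of viruses, and Ifitm1 and Ifitm3 are also known as markers of early germ cells. Ifitm1 (ENSMUSG00000025491, chr7:140967221-140969825, plus strand) had 5790, 5404 and 5344 counts in the control lines and 2153, 1990 and 2233 in the lines labelled knockout, or 198.9 ± 5.92 and 80.8 ± 1.67 cpm. Its log2 fold change of −1.30 (SE 0.03) was the largest of the 3 in size.

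Ifitm3 (ENSMUSG00000025492, chr7:141009586-141010770, minus strand) had 4352, 4232 and 4266 counts in the control lines and 2108, 2047 and 2268 in the lines labelled knockout, or 154.6 ± 0.686 and 81.4 ± 1.52 cpm. Its log2 fold change was −0.93 (SE 0.03), and 52.6% of the control level was left.

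Ifitm2 (ENSMUSG00000060591, chr7:140954837-140955987, minus strand) lies 11234 bases from Ifitm1 and was the exception. It had 5927, 5770 and 5639 counts in the control lines and 6681, 6301 and 6877 in the lines labelled knockout, or 208.6 ± 2.85 and 251.7 ± 7.09 cpm. All lines labelled knockout were above all control lines, by a log2 fold change of 0.27 (SE 0.03).

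Set against Ifitm2 within the same library, which removes any effect of library size, the Ifitm1 count was 0.977, 0.937 and 0.948 of the Ifitm2 count in the control lines and 0.322, 0.316 and 0.325 in the lines labelled knockout. The Ifitm3 count was 0.734, 0.733 and 0.757 of it in the control lines and 0.316, 0.325 and 0.330 in the others. The summed level of the 3 genes went from 562.1 ± 7.95 to 413.8 ± 9.49 cpm, and the share of Ifitm2 in it went from 37.1% ± 0.304 to 60.8% ± 0.329.

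The level of Ifitm2 has a limit of its own. Of the 580 stretches of 76 bases in its transcript, the length of 1 read, 242 (41.7%) also occur in a transcript of another gene, and the authors discarded fragments with multiple locations. The pseudogenes Gm8865 and Gm11951, which hold 49 and 38 of these stretches, had at most 6 counts in any library, and Gm45717, which holds 193, was not analysed here. The position of Gm45717 was not compared with that of Ifitm2. The counts of Ifitm2 may therefore be too low, and no loss was measured. Ifitm1 shared 0.620% and Ifitm3 0.498% of its stretches, the Gbp genes between 0.837% and 2.61%, Irf1 1.26%, and Isg15 and Bst2 shared none. Those of Irf1 are shared with Gm17334, which overlaps Irf1 on the opposite strand, so they do not show a further location. The coding sequences of Gbp2 and Gbp2b are identical at 82.5% of aligned bases and those of Ifitm2 and Ifitm3 at 75.9%, while Ifitm1 is 60.4% identical to Ifitm2 and 63.5% to Ifitm3.

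Levels per kb of the longest transcript give the order of the 9 genes. In the control lines Ifitm2 came first at 318.4 ± 4.36 cpm per kb, before Ifitm3 at 228.0 ± 1.01 and Ifitm1 at 225.5 ± 6.71, whose lines overlapped. Bst2 followed at 68.1 ± 2.43, Irf1 at 42.3 ± 1.23, Gbp2 at 12.6 ± 0.152, Gbp2b at 7.85 ± 0.0373, Gbp3 at 5.43 ± 0.260 and Isg15 at 3.42 ± 0.257 cpm per kb, with no overlap between neighbours. In the lines labelled knockout the first 6 places were the same genes in the same order, from Ifitm2 at 384.3 ± 10.8 to Gbp2 at 0.718 ± 0.132 cpm per kb. There Gbp3 (0.276 ± 0.0699 cpm per kb) overlapped Gbp2b (0.202 ± 0.0582), and Gbp2b overlapped Isg15 (0.0841 ± 0.0588). With the length of all exons in place of the longest transcript, Ifitm1 came to 181.8 cpm per kb in the control lines, under the 228.0 of Ifitm3, and Irf1 to 22.7 in the control lines and 12.99 in the lines labelled knockout, in place of 42.3 and 24.2.

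The Gbp genes sit side by side, and their neighbours were compared in the test over all genes. Gbp2b ends 1423 bases before Gbp2, and Gbp3 lies 21638 bases before Gbp2b. Gbp7, a further guanylate-binding protein 9877 bases from Gbp3, had 149, 177 and 157 counts in the control lines and 14, 19 and 13 in the lines labelled knockout, a fall with a log2 fold change of −3.31 (SE 0.17, adjusted p = 9.65e-23, edgeR). On the other side, Kyat3, an aminotransferase gene, had a log2 fold change of −0.03 (SE 0.07, adjusted p = 0.741, edgeR), with 309, 286 and 266 against 272, 244 and 286 counts. These were the only tested neighbours within 100 kb. The 49 tested genes within 5 Mb whose counts averaged 10 or more had a median log2 fold change of −0.01, and 38.8% of them were called lower.

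Around the Ifitm genes, 13 other genes within 100 kb were tested, of which 8 rose, 2 fell and 3 were not called. Those that rose had log2 fold changes up to 0.59, in B4galnt4, and the 2 that fell were the plakophilin gene Pkp3 (−0.69, SE 0.06, adjusted p = 6.97e-14, edgeR) and Ano9 (−0.69, SE 0.04, adjusted p = 8.69e-19, edgeR). Nlrp6, 1 of those that rose (0.43, SE 0.17, adjusted p = 0.0243, edgeR), lost its call in DESeq2 (0.115). It also lost it without control line 2 (0.148) or without labelled knockout line 1 (0.126). Ifitm5, which lies 4546 bases from Ifitm2 and is known from bone, had 26, 38 and 36 counts against 36, 36 and 47 (log2 fold change 0.32, SE 0.20, adjusted p = 0.147, edgeR). Ifitm6, 4929 bases from Ifitm3, had between 5 and 12 counts in every library. The map of both clusters shows the log2 fold changes against distance.

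**Figure D3:**
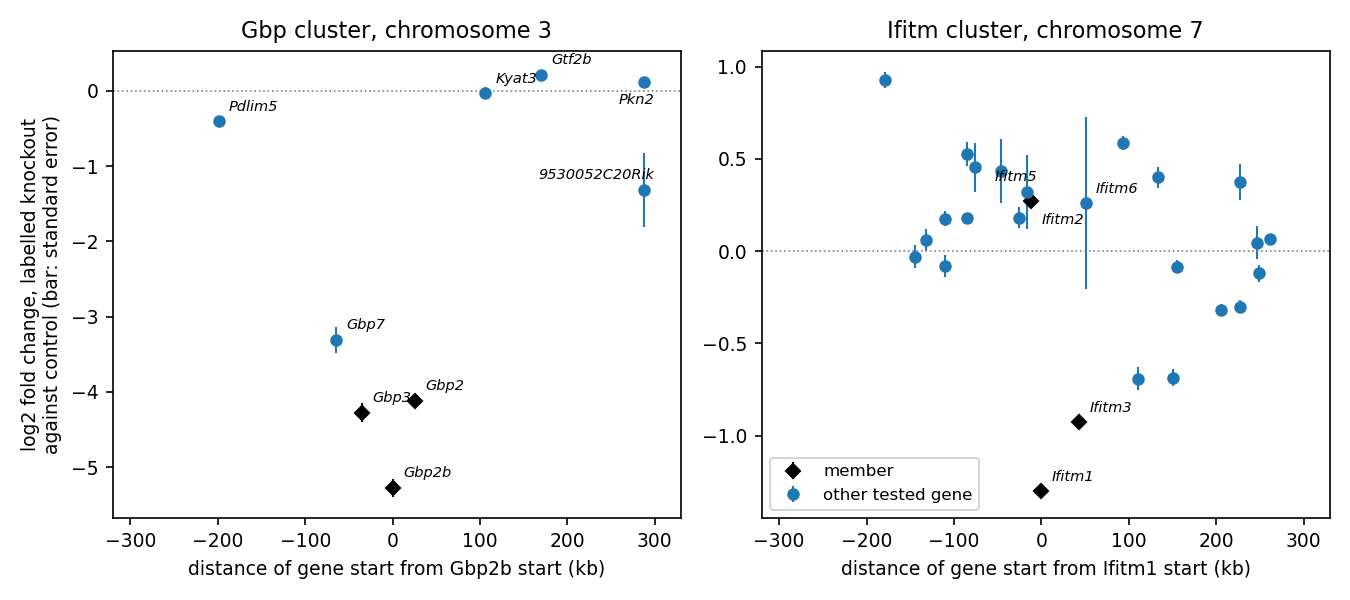
Log2 fold change (lines labelled knockout against control) of tested genes within 300 kb of Gbp2b (left) and of Ifitm1 (right) against the distance of the gene start in kb, with bars for the standard error. Black diamonds are the described genes and blue circles the other tested genes; in the left panel Gbp7, Gbp3, Gbp2b and Gbp2 lie under −3 while Kyat3 lies at −0.03, and in the right panel Ifitm1 and Ifitm3 lie under −0.9 while Ifitm2 lies at 0.27.

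For the single genes, Isg15 had 4 tested neighbours within 100 kb, 1 higher and 3 lower, among the lower Agrn (−0.12, SE 0.03) and Plekhn1 (−1.26, SE 0.15). The third, 9430015G10Rik (−0.08, SE 0.03, adjusted p = 0.0274, edgeR), lost its call without control line 3 (0.138), without labelled knockout line 2 (0.0842) or line 3 (0.0666), in DESeq2 (0.0829) and with no count filter (0.060). Irf1 had Rad50 (higher, 0.32, SE 0.03) and Slc22a5 (lower, −0.36, SE 0.07). Bst2 had 12, of which 2 rose, 8 fell and 2 were not called, with log2 fold changes from −1.19 in Ano8 to 0.35 in Slc27a1. Of 130 genes within 5 Mb of Bst2, 27 had a log2 fold change as low as its own or lower. This region of chromosome 8 leaned the same way: 54.6% of the 130 genes were called lower, against 35.2% of all genes, with a median log2 fold change of −0.18. This lean was not particular to Bst2. Called lower were 46.1% of 76 genes around Isg15 and 46.2% of 106 around the Ifitm genes, but 27.9% of 111 around Irf1. The part of these regions in the values of the described genes was not tested.

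The rest of the interferon pathway was then read in the test over all genes, from lists of 154 other genes. These lists, like the marker lists below, were chosen with earlier results of these data known. Their counts, medians and adjusted p-values are thus a description and no independent support for a change of the pathway. Of these, 4 were not analysed here, 47 were under the count filter and 103 were tested. Of the 103, 24 rose and 54 fell in the lines labelled knockout and 25 were not called, so 75.7% were called, against 69.5% of all genes. Their median log2 fold change was −0.22, against −0.00036 over all genes. The plot of pathway lists gives each gene.

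**Figure D4:**
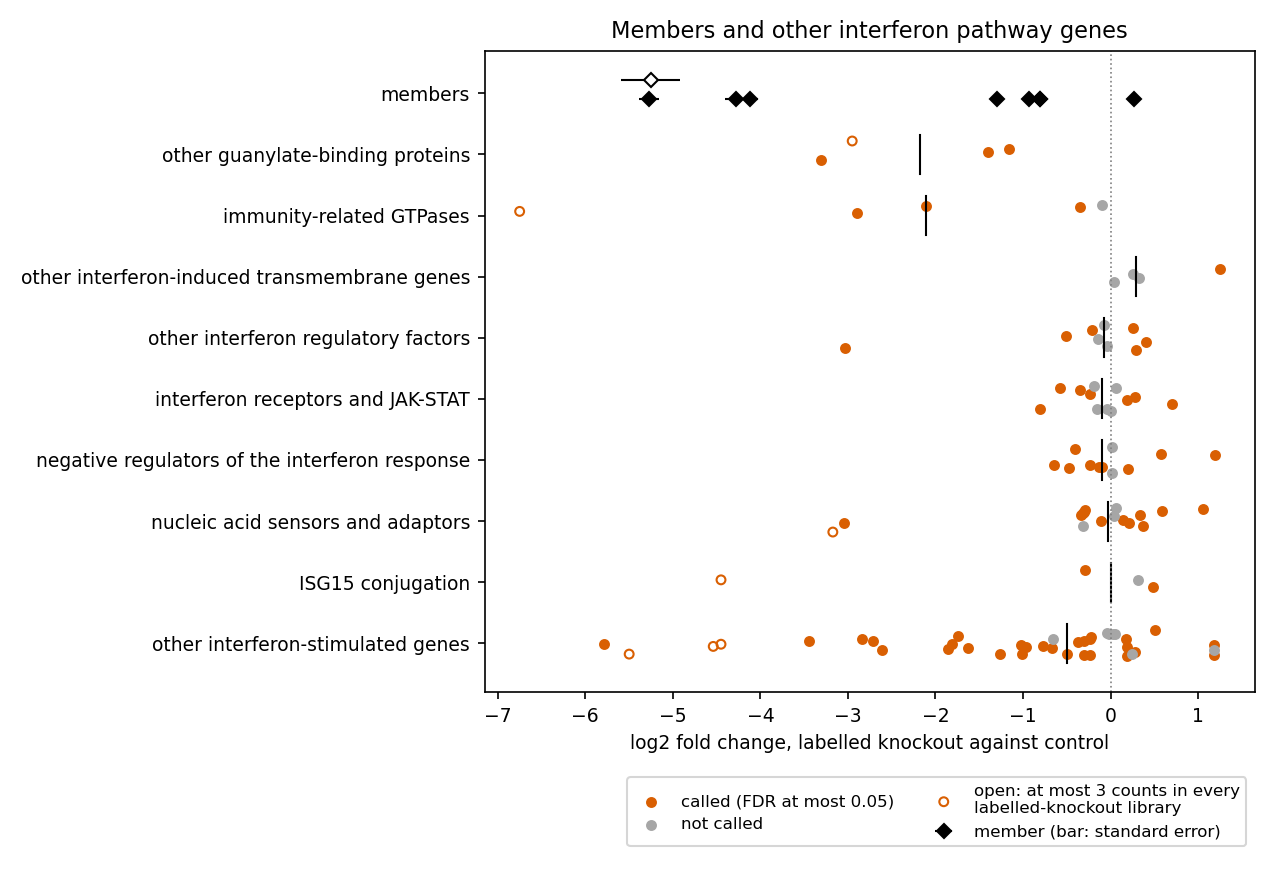
Log2 fold change (lines labelled knockout against control) of the 9 described genes (black diamonds, bars for the standard error) and of the other tested genes of each interferon pathway list (circles; orange, called at an FDR of 0.05; grey, not called; black line, list median). Open symbols mark genes with at most 3 counts in every line labelled knockout, whose fitted values depend on the small count added; the receptors, regulatory factors and sensors lie mostly between −1 and 1, and the guanylate-binding proteins all lie under −1.

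Of the ligands, 20 of 21 interferon genes had no count in any library, which allows at most 3 counts per library for each, and Ifnl2 had 2, 1 and 4 counts in the control lines and none in the others. Ifnb1 and Ifng, the genes of interferon beta and gamma, were among the 20. No ligand reached the count filter, so none was tested.

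At the receptors and in the JAK-STAT step, 3 of 12 tested genes rose, 4 fell and 5 were not called, with a median log2 fold change of −0.10. Ifnar1 fell (−0.24, SE 0.04, adjusted p = 2.98e-07, edgeR) and Ifnar2 rose (0.70, SE 0.11, adjusted p = 2.18e-07, edgeR), the 2 chains of the type I receptor. The type II receptor genes Ifngr1 (−0.04, SE 0.12, adjusted p = 0.795, edgeR) and Ifngr2 (−0.16, SE 0.13, adjusted p = 0.271, edgeR) were not called.

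The kinase genes Jak1 (−0.35, SE 0.04), Jak2 (−0.80, SE 0.08) and Tyk2 (−0.58, SE 0.04) all fell. Of the factors downstream, Stat2 was not called (0.00, SE 0.05, adjusted p = 0.960, edgeR), and Irf9 rose (0.25, SE 0.06, adjusted p = 0.000272, edgeR).

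Among the other interferon regulatory factors and their partners, 3 of 9 tested genes rose, 3 fell and 3 were not called. Irf5, 1 of those that rose (0.41, SE 0.15, adjusted p = 0.0164, edgeR), lost its call in DESeq2 (0.095). It also lost it without control line 3 (0.114) and without labelled knockout line 1 (0.0651) or line 3 (0.0614). Irf2, the close relative of Irf1 that binds the same sites and is known mainly as its antagonist, had 31, 31 and 27 counts in the control lines and 1, 5 and 4 in the lines labelled knockout (−3.03, SE 0.39, adjusted p = 1.69e-09, edgeR). Irf2bpl rose (0.29, SE 0.03). Irf3, the factor that acts after sensing of nucleic acids, had a log2 fold change of −0.07 (SE 0.04, adjusted p = 0.146, edgeR).

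The other guanylate-binding proteins fell in all 4 tested cases, a list median of −2.18. Besides Gbp7, these were Gbp4 (−1.40, SE 0.08), Gbp9 (−1.16, SE 0.15) and Gbp8, which had 13, 5 and 9 counts against 1, 1 and 1. Gbp4, Gbp8 and Gbp9 lie on chromosome 5, in annotated spans that overlap, whereas the Gbp genes described above lie on chromosome 3. Gbp5, Gbp6 and Gbp10 were not analysed here, and Gbp11 was under the filter.

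The immunity-related GTPases, a smaller GTPase family also induced by interferon gamma, gave 4 lower genes of 5 tested and none higher. Irgm1, a regulator of that family, had 1195, 1157 and 1111 counts in the control lines and 242, 229 and 292 in the lines labelled knockout (−2.11, SE 0.06, adjusted p = 9.88e-35, edgeR). Tgtp1 had 45, 36 and 55 against 6, 7 and 4 counts, Igtp fell (−0.35, SE 0.12, adjusted p = 0.00891, edgeR), and Ifi47 had 12, 18 and 11 against 0, 0 and 0 counts, at least 12.99-fold lower with 3 counts over the group as the floor. Igtp was no longer called without labelled knockout line 3 (adjusted p = 0.0652, edgeR) or in DESeq2 (0.0626). Irgm2 was not called (−0.10, SE 0.13, adjusted p = 0.523, edgeR). The annotated spans of Igtp and Irgm2 overlap on the same strand, and fragments with multiple genes were discarded. The counts of both may therefore be too low, and no loss was measured.

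For the conjugation of ISG15, 1 of 4 tested genes rose, 2 fell and 1 was not called. Uba7, the activating enzyme that is specific to ISG15, had 7, 10 and 14 counts in the control lines and 0, 0 and 1 in the lines labelled knockout. Ube2l6, the conjugating enzyme, rose (0.48, SE 0.13, adjusted p = 0.000855, edgeR), the ligase gene Trim25 fell (−0.29, SE 0.02), and Herc6 was not called (0.31, SE 0.20, adjusted p = 0.157, edgeR). Usp18, the protease that removes ISG15, had at most 3 counts in every library.

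Of 39 other interferon-stimulated genes, 7 rose, 25 fell and 7 were not called, with a median log2 fold change of −0.50. Parp10 had 369, 402 and 413 counts against 32, 37 and 34 (−3.45, SE 0.11, adjusted p = 1.20e-30, edgeR), and Ifi35 had 339, 305 and 324 against 79, 84 and 98 (−1.82, SE 0.09, adjusted p = 9.35e-23, edgeR). Psmb8, a subunit of the immunoproteasome, had 201, 198 and 203 against 4, 2 and 4 counts (−5.79, SE 0.21, adjusted p = 9.70e-29, edgeR), and the peptide transporter gene Tap1 also fell (−2.84, SE 0.15, adjusted p = 2.25e-22, edgeR). Eif2ak2, the kinase PKR, rose (0.19, SE 0.04, adjusted p = 0.000135, edgeR), as did Tor3a (0.51, SE 0.04). Oas1a, Oas2, Samhd1 and Cmpk2 were among those not called.

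The negative regulators gave 3 higher and 6 lower genes of 11 tested, with a median log2 fold change of −0.10. Socs3 rose (1.20, SE 0.03, adjusted p = 7.80e-35, edgeR) and Socs1, the main brake on interferon gamma signalling, fell (−0.65, SE 0.12, adjusted p = 2.66e-06, edgeR). The nucleic acid sensors and adaptors gave 6 higher and 7 lower genes of 16, with a median of −0.03. The sensor Zbp1 had 215, 174 and 228 against 17, 24 and 30 counts (−3.04, SE 0.15, adjusted p = 3.10e-23, edgeR), while the adaptor Mavs rose (0.34, SE 0.04, adjusted p = 4.66e-10, edgeR). The other Ifitm relatives gave 1 higher gene, Tmem91, and 3 not called, Ifitm7 (0.04, SE 0.15, adjusted p = 0.806, edgeR) among them.

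The motif cores were counted in the same way for these genes. Of the 81 other pathway genes that were tested and had a promoter window, 21 (25.9%) held an ISRE core, 14 of the 43 that fell, 4 of the 19 that rose and 3 of the 19 not called. Over all tested genes with a window the share was 3.96% of the 4213 that fell, 3.43% of the 4374 that rose and 3.005% of the 3361 not called. A GAS core was held by 13 of the 43 pathway genes that fell, 3 of the 19 that rose and 5 of the 19 not called, and over all tested genes by 7.31%, 8.69% and 8.09% in the same order.

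Markers of other cell types were summed beside these results. The lines were grown without feeder cells, which are commonly fibroblasts. Of 9 tested fibroblast markers, 7 fell and none rose, and their sum ran from 61.4 to 63.7 cpm in the control lines and from 13.6 to 14.3 cpm in the lines labelled knockout. Col1a1 had 1095, 1126 and 1188 against 92, 110 and 107 counts, while Lum had no count in any library. Of 5 tested blood and macrophage markers 1 rose, 3 fell and 1 was not called, with sums of 24.0 to 27.2 against 13.2 to 14.3 cpm, Ptprc had at most 5 counts in any library, and Adgre1, Tyrobp and Lyz2 had none. Of 8 primordial germ cell markers, 4 rose and 2 fell, with sums of 194 to 196 against 244 to 247 cpm. The part of these markers in the values of the 9 genes was not tested.

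Among 11115 genes that averaged 100 counts or more, the profile over the 6 libraries closest to each of the 9 genes was found by Euclidean distance on log2(cpm + 1), each gene centred on its mean. For Gbp2 the closest was H19, an imprinted non-coding RNA (distance 0.071; 379.8 against 31.4 cpm), and for Gbp2b they were Krt18, a keratin gene, and Tagln, a smooth muscle gene (0.200 and 0.232). For Gbp3 it was Tmcc3 (0.157), for Isg15 Prex2 (0.080) and for Irf1 Eda2r (0.043). Ifitm1 lay closest to Atp10a (0.062), Ifitm2 to Sap130 (0.026), Ifitm3 to Gm15459 (0.016) and Bst2 to Rai1 (0.055). No gene of the interferon lists was among the 3 closest to any of the 9. Only 60 of the 103 tested list genes averaged 100 counts or more. Others, such as Gbp7 with a mean of 88.2, could not be matched, so nothing is read from this absence. With a constant of 1 added, a gene as low as Isg15 is matched to genes of smaller fold change, such as Prex2 at −1.95.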

How the data were processed

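The authors sequenced pairs of 76-base reads, filtered out rRNA reads using Bowtie2, aligned what remained to mm10 with TopHat2 and counted fragments per GENCODE M4 gene with htseq-count, using the strand and discarding fragments with multiple genes or locations. The submitters' processing notes name CASAVA 1.8.2, Bowtie2 2.1.0, TopHat2 2.0.10 and HTSeq 0.6.1. The deposited values are raw counts, not normalized. Genes with close copies can be under-counted, and PCR duplicates were not marked, so intervals cover counting error only.

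The 9 genes and the pathway and marker lists were chosen with earlier results of these data known. Symbols and coordinates came from GENCODE M21 (mm10) by Ensembl identifier, for 42425 of 43309 genes. Genes that reached 10 counts in any library were tested in R 4.3.3 with edgeR 4.0.16 (TMM, glmQLFit, glmQLFTest, no covariate), and calls were made at a Benjamini-Hochberg FDR of at most 0.05. The fitted coefficient of variation between lines was 2.00%. Chi-square tests over genes found that libraries of a group differed beyond sampling noise. The mean squared deviation was 1.14 (control lines 2 and 3) to 2.24 (labelled knockout lines 1 and 3) times that of sampling alone. Repeat libraries of 1 line could also differ so, and the test cannot show that the lines are independent. Each library counts as 1 replicate because the study describes the lines as independently derived. The calls and adjusted p-values rest on the spread between these libraries. Ratios of summed counts carry exact (Clopper-Pearson) 95% intervals. Alternatives were RLE scaling, DESeq2 1.42.0, other filters, a fold minimum, a minimum length, leaving out each library, and the replicate number as a block. The numbers in the sample names pair nothing known, and same-numbered libraries had correlations of 0.0046, 0.074 and 0.011 in their deviations.

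Named genes were the 9, Zbtb24, tested genes within 100 kb, at most 4 called genes per list (largest change, mean of at least 100 counts), receptors, kinases and STAT factors fixed by name, and the 3 nearest profiles. Others (such as Gbp8, Gbp9, Ifi47, Tgtp1, Igtp, Irgm2, Irf2, Irf3, Uba7, Ube2l6, Herc6, Usp18, Ifnl2, Tmem91, Eif2ak2 and Tor3a) were named after their values were seen. Some genes of the lists and some neighbours enter the counts and are not reported by name here. Of the marker lists not given in the report, 5 of 6 tested endothelial genes fell and 1 rose, 3 of 7 endoderm genes fell and 1 rose, and 1 of 5 mesoderm genes fell and 2 rose. Of the 10 mESC markers 8 rose and 2 fell.

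Promoter windows came from RefSeq (GRCm38.p6) and were matched by symbol. Protein identity had been planned; coding sequences of GENCODE M21 transcripts were aligned instead (Biopython 1.88), since no protein sequences were used here. Shared stretches were exact matches of 76 bases on either strand.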

Additional observations from a re-analysis of the deposited data

How the results depend on the processing

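The log2 fold changes of the 9 genes kept their direction under every alternative run, with ranges of −4.27 to −4.01 for Gbp2, −5.42 to −5.06 for Gbp2b, −4.41 to −4.10 for Gbp3, −5.93 to −4.96 for Isg15, −0.83 to −0.77 for Irf1, −1.32 to −1.28 for Ifitm1, 0.26 to 0.30 for Ifitm2, −0.94 to −0.92 for Ifitm3 and −0.83 to −0.78 for Bst2. A minimum size of 1 for the log2 fold change left 877 genes higher and 1988 lower over all genes, and 5 higher and 26 lower of the pathway genes, by construction. Leaving out 1 library at a time gave 5436 to 5592 genes higher and 5623 to 5726 lower, and 22 to 24 and 49 to 55 of the pathway genes. With the replicate number as a block, 11801 genes were called, 11684 of them shared with the 11697 called without it, and 78 pathway genes in each case; the numbers pair no lines, so the block was not used. DESeq2 called 21 pathway genes higher and 48 lower, and 5027 higher and 5299 lower over all genes, fewer than edgeR did. In all, 404 of the recomputed values stayed within their limits and 25 moved. At the depth of these libraries, genes with fewer than about 10 counts, such as Isg15 in the lines labelled knockout, have a ratio known only to within its counting interval.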
